A study of Mus musculus with 24 samples.

Results

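Gene expression in the untreated aorta was compared between mice with a targeted Ppp3cb allele (KO) and wildtype (WT) mice. The 12 control libraries were taken out of the 24 of the series by their titles, 6 KO and 6 WT, and the sex in the title entered the model as a covariate. The 4 groups were WT control females, WT control males, KO control females and KO control males, with 3 libraries each. All mice were 5 months old and of the stock B6,129S6-Ppp3cbtm1Jmk/J, and no Cre driver is named for the allele. Whether controls were given an empty pump, whether WT mice were littermates of the KO mice and which exons the KO allele lacks is not given in the sources used here. The other 12 libraries came from mice of both genotypes given angiotensin II (AngII) and were used here only as a second set of KO and WT libraries. Each library was made from ribosomal-RNA-depleted total RNA of an aorta. The number of mice per library is not stated, so the p-values measure the spread between these libraries.

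Calcineurin is a phosphatase that is switched on by calcium and calmodulin. It consists of a catalytic A subunit, of which Ppp3cb encodes the beta form, and a calcium-binding B subunit. Its best known substrates are the NFAT transcription factors, which enter the nucleus once dephosphorylated and act in T cells, heart, skeletal muscle and vascular smooth muscle.

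The libraries had the make-up of an aorta with its surrounding tissue. Smooth muscle myosin, Myh11, was at 3876 to 10081 CPM (counts scaled to a common library total with TMM factors) and smooth muscle actin, Acta2, at 1498 to 6971 CPM. All 12 measured endothelial, all 13 fibroblast and 14 of 15 adipocyte markers had counts in every library, and the brown fat gene Ucp1 was at 2.67 to 227 CPM. Totals were 2510551 to 4724160 counts in WT and 1523328 to 4887383 in KO. The 3 KO female libraries stood apart: they held 1523328 to 2401264 counts, and olfactory and vomeronasal receptor genes, which are mostly silent outside sensory tissue, were at 1005 to 2004 protein-coding CPM there (unscaled CPM with the protein-coding counts of the library as the total). In the other 9 libraries that value was 207 to 589. A group of repeat-like gene models took 34.5%, 7.75% and 19.8% of all counts in KO females 1, 2 and 3 and 1.4% to 8.40% elsewhere. For these reasons the values within each sex, and those without KO females 1 and 3, are given beside the results over both sexes. Of the repeat-like models, Gm21738 is annotated 1.08 Mb before the start of Ppp3cb. It differed by 0.75 log2 in the controls (edgeR, adjusted p = 0.961) and was called higher in KO under AngII (1.59 log2; adjusted p = 0.0136).

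**Figure D1:**
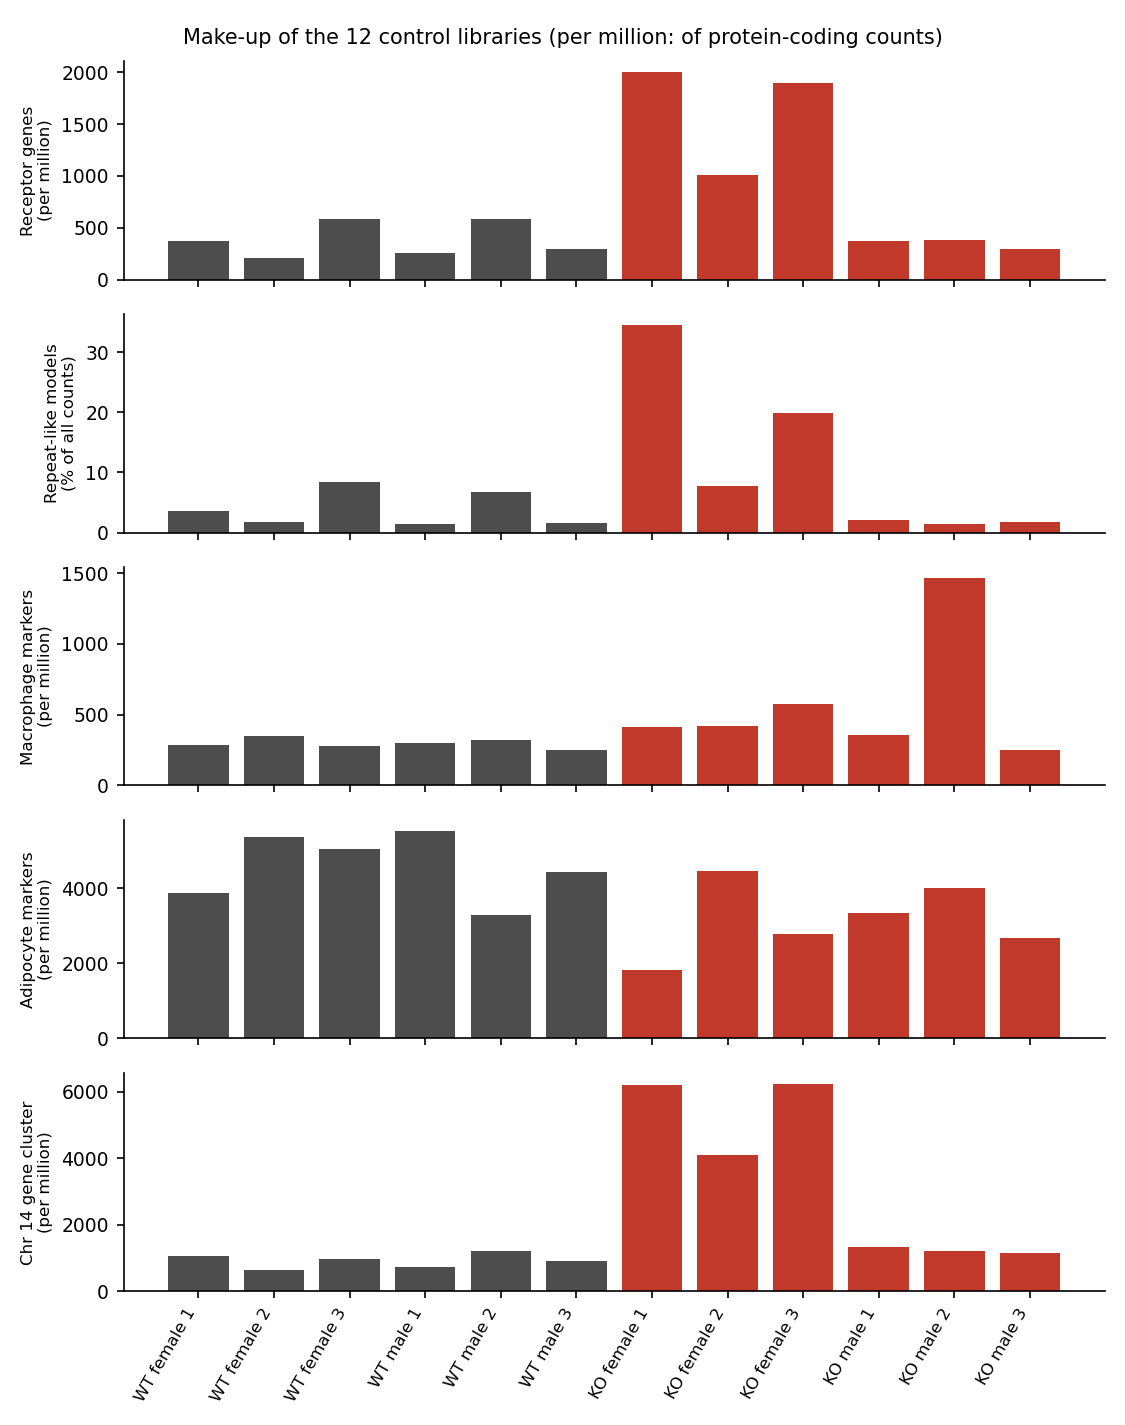
Each bar is 1 control library, WT in grey and KO in red. Rows give receptor genes, macrophage markers, adipocyte markers and the gene cluster near the start of chromosome 14 in protein-coding CPM, and repeat-like models in percent of all counts. KO females are the highest 3 libraries for receptor genes and for the cluster, and KO male 2 is the highest for macrophage markers (1466 protein-coding CPM).

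Counts at Ppp3cb (ENSMUSG00000021816, chromosome 14, 20499364 to 20546573, minus strand, mm10) checked the labels. They were 47.2, 51.2 and 43.6 CPM in WT females, 29.7, 50.2 and 37.2 CPM in WT males, 29.9, 26.1 and 30.6 CPM in KO females and 16.9, 16.1 and 11.5 CPM in KO males. Within females and within males every KO library lay below every WT library, as in 11.6% and 4.35% of all genes. Across the sexes KO females 1 and 3 lay just above the lowest WT male. The 6 WT libraries averaged 43.2 ± 8.33 CPM and the 6 KO libraries 21.9 ± 8.05 CPM (SD, n = 6), which is 50.6% of WT (two-sided exact permutation test, p = 0.00649). The share was 61.0% in females and 38.0% in males, where 3 against 3 libraries cannot give an exact p under 0.1. In the model over all genes the difference was -1.06 ± 0.23 log2 (SE) and missed the threshold (edgeR, adjusted p = 0.128). Ppp3cb was called by DESeq2 (adjusted p = 0.0102) and by limma-voom. In the AngII mice the difference was -0.93 log2 and was not called (edgeR, adjusted p = 0.054). Gene-level counts take in the whole gene, so transcripts that keep part of it are counted as well.

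Across the genome few genes were called different between KO and WT. Of 14498 genes tested, 5 were called higher in KO at an adjusted p under 0.05 (0.0345%) and 0 were called lower (0%). At an unadjusted p under 0.05 there were 837 genes, 520 higher (3.59%) and 317 lower (2.19%), DESeq2 called 126 and limma-voom 36. The 5 genes were Speer4c, Speer4cos, H2-Q4, Gm6337 and Gm17074. Of the 12 fits that each left out 1 library, Speer4c and Speer4cos were called in 6, Gm17074 in 5, Gm6337 in 4 and H2-Q4 in 3 (without WT male 2, WT male 3 or KO male 3), and all 5 kept their direction in each. In the contrast within females 36 genes were called higher (0.248%) and 6 lower (0.0414%). Within males 0 genes were called, with 445 at an unadjusted p under 0.05 and 3 called by DESeq2. No difference of the genotype effect between the sexes was called by edgeR (1370 genes at an unadjusted p under 0.05; smallest adjusted p = 0.0958, DESeq2 110 genes), so the sexes are not shown to differ.

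A group of genes at the start of chromosome 14 stood apart from the rest of the genome in its median. Below 8 Mb on that chromosome, at 12.5 to 17.5 Mb from Ppp3cb, 142 genes were tested, and 139 of them were higher in KO (47.7% of all genes were higher). Their median difference was 2.30 log2, against -0.03 over the 13747 genes on other chromosomes and -0.02 over all genes. The stretch is known for a large family of near-identical gene copies, the alpha-takusan genes, whose proteins resemble the start of the scaffold protein Dlg5 and which are related to the Speer genes. Of the 142 genes, 140 have systematic names only and 94 are annotated as protein-coding. The boundary and the copies described were chosen after their values were seen. The filter kept genes with enough counts in any 3 libraries, the size of a group. Copies near 0 in WT could thus enter through KO libraries alone, and such copies can only be higher in KO. The medians and the counts of cluster genes higher in KO, in the controls and under AngII, are therefore partly set by the filter. How many copies entered this way was not counted.

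The copies are shown by a stretch of 80 bases that lies upstream of 4 of them. Sequences are from RefSeq (GRCm38.p6), minus strand, 5′ to 3′, and capitals mark the bases that differ from Gm3667. The stretch lies at chr14:6890000-6890079 for Gm3667, chr14:5460458-5460537 for Gm3194, chr14:7027544-7027623 for Gm10406 and chr14:7568598-7568677 for Gm3558.
Gm3667: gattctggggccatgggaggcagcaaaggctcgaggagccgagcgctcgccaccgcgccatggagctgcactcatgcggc
Gm3194: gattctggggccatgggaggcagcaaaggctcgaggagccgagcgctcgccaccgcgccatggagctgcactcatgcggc
Gm10406: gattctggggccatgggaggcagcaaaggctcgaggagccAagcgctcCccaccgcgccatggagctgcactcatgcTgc
Gm3558: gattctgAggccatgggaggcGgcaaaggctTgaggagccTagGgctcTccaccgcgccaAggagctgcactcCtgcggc
Gm3194 was identical to Gm3667 over the 80 bases, Gm10406 differed at 3 and Gm3558 at 8. The stretch was picked as the 80 promoter bases of Gm3667 closest to the other genes shown. These identities are thus a best case and do not measure how alike whole promoters are. The limit of 8 mismatches used next equals the value of Gm3558. Of the 142 genes, 68 had a promoter in the table, and 17 of these held the stretch with at most 8 mismatches on either strand. It was found for 2 of 26957 other gene symbols, both also on chromosome 14. Over whole transcripts, a median of 89.6% of the 50-base windows of the 142 genes also occurred in transcripts of another gene, and for 136 genes more than 50% did. How reads that match several copies were counted is not given in the sources used here, so the levels of single copies are uncertain and the group is better read as a whole.

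In Gm3667 the WT libraries held 2.28, 0.449 and 0.632 CPM in females and 0.938, 0.727 and 2.62 CPM in males. The KO libraries held 25.1, 14.4 and 20.0 CPM in females and 4.91, 7.33 and 4.50 CPM in males. Every KO library lay above every WT library, with KO females above KO males. The same order held for Gm10406, which had 0 to 2.62 CPM in WT, 17.3 to 69.9 CPM in KO females and 4.42 to 14.2 CPM in KO males, and for Gm3558, with 1.8 to 5.71, 26.5 to 38.2 and 6.49 to 9.82 CPM. Neither Gm3667 (3.01 ± 0.64 log2, SE; edgeR, adjusted p = 0.125), Gm10406 (3.73 ± 0.69, 0.0532) nor Gm3558 (2.13 ± 0.45, 0.125) passed the threshold. The 2 genes of the cluster that were called were Gm6337, at 0 to 2.53 CPM in WT against 0 to 58.4 CPM in KO (4.82 ± 0.79; edgeR, adjusted p = 0.0419), and Gm17074, at 0 to 1.14 CPM in WT against 0.236 to 32.6 CPM in KO (5.42 ± 0.92; 0.0475). In Gm6337 KO males 2 and 3, and in Gm17074 KO male 2, lay within the WT range.

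As a group, 92 of the 142 genes had an unadjusted p under 0.05, all higher, 13 had every KO library above every WT library (0.2% of all genes), and 2 were called. The summed level of the cluster was 1078, 637 and 976 protein-coding CPM in WT females and 740, 1211 and 901 in WT males. It was 6197, 4083 and 6238 in KO females and 1321, 1224 and 1167 in KO males. KO females were thus far above all others, KO males 1 and 2 just above the highest WT library, and KO male 3 within the WT range.

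In females the median was 3.98 log2 and 140 of 142 genes were higher. Of the 42 genes called within females 29 were in this cluster. In males the median was 0.65, 110 of 142 genes were higher, and 26 had every KO male above every WT male (5.77% of all genes; 4.35% lay the other way). Receptor genes, which were highest in the 3 KO females, were at 298 to 384 protein-coding CPM in KO males and 256 to 589 in WT males. Repeat-like models were at 1.4% to 2.04% of counts in KO males and 1.5% to 6.82% in WT males. Without KO females 1 and 3 the median over both sexes was 1.69. With the receptor share of each library as a covariate it was 1.00, with 116 of 142 genes higher and 0 genes called by edgeR in the whole genome.

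The AngII mice, which share no library with the controls, gave the same direction. There 124 of 125 cluster genes tested were higher in KO, the median was 2.74 log2, and 42 were called (57 of 13678 genes were called higher, 0.417%, and 11 lower, 0.0804%). The summed level was 592 to 1023 protein-coding CPM in WT and 1235 to 3823 in KO, with no overlap. Among single genes 0.566% had every KO library above every WT library under AngII, a share that is no background for a sum. Receptor genes were at 113 to 346 protein-coding CPM in these WT libraries and 243 to 1073 in these KO libraries, and their part in the result was not tested there. Gm3667 ranged over 0.266 to 3.30 CPM (WT) and 5.63 to 31.1 CPM (KO) under AngII (3.20 log2; edgeR, adjusted p = 0.00766). Of the 68 genes called in the AngII mice 67 were tested in the controls, and all 67 had the same sign there. Of the 68, 42 were genes of the cluster, 45 lay on chromosome 14 and 51 were pseudogenes or had systematic names only. Many of them share sequence, so the 67 are not independent of one another. The share of all genes with the same sign in both sets was not computed.

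The other stretches of the chromosome had medians near 0 over both sexes. The 50 tested genes between 8 Mb and Ppp3cb had a median of 0.07 log2, the 68 genes up to 10 Mb beyond it -0.13, and the 480 genes further on 0.00. Within the last stretch lies a second block of copies, 21 to 24 Mb beyond Ppp3cb, noticed from its values, where 37 of 38 tested genes have systematic names. Its median was 2.09 log2 in females, with 35 of 38 genes higher, and -1.76 in males, with 7 of 38 higher; over both sexes it was 0.35, and edgeR called 0 and DESeq2 2. The block summed to 107, 75.3 and 322 protein-coding CPM in WT females and 637, 469 and 564 in KO females. It summed to 111, 386 and 111 in WT males and 102, 148 and 73.0 in KO males. KO females lay above all other libraries, and WT female 3 and WT male 2, which also had the most receptor counts among WT, lay above the KO males. Without KO females 1 and 3 the median of the block was -0.29 and with the receptor share as covariate -1.21, against 1.69 and 1.00 for the first cluster. Under AngII 15 of 17 tested genes of the block were higher and 0 were called (median 1.03). Close to Ppp3cb lay 3 further genes with shared sequence that had higher means in KO. Gm5458, at 0.905 Mb before the start of Ppp3cb, held 0 to 1.14 CPM in WT and 0.709 to 20.0 CPM in KO (4.10 ± 0.77 log2; edgeR, adjusted p = 0.0532). Gm2244 averaged 4.07 ± 2.33 CPM over the WT libraries against 26.6 ± 26.4 CPM over the KO libraries, and Gm2237 5.66 ± 6.37 against 21.2 ± 18.9 CPM (SD, n = 6). Dlg5 itself, on the same chromosome, differed by 0.02 ± 0.21 log2. In a stock whose name holds both B6 and 129S6, the loss of Ppp3cb and any strain-specific DNA linked to the allele cannot be told apart.

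**Figure D2:**
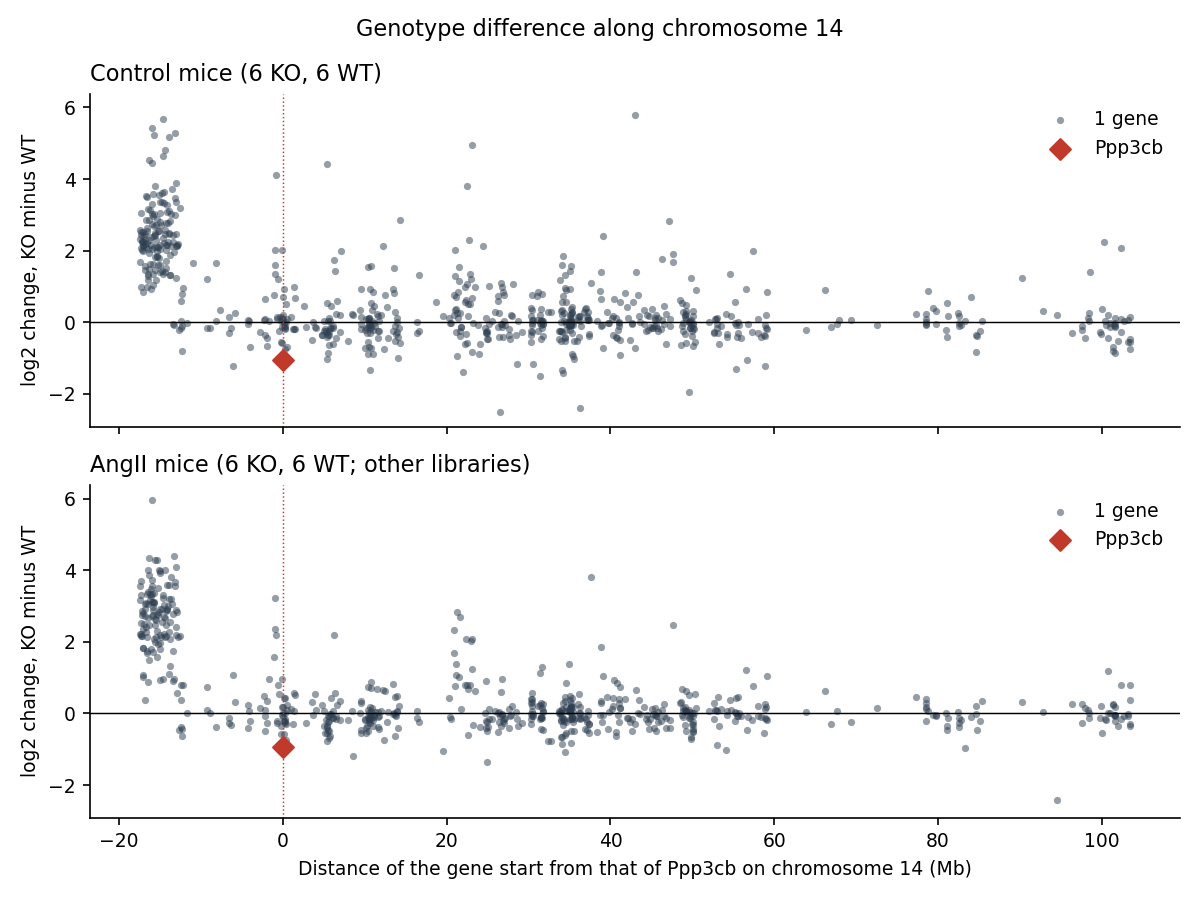
Each point is 1 gene of chromosome 14, placed by the distance of its start from that of Ppp3cb in Mb (x) and by its log2 difference, KO minus WT (y), in control mice (top) and AngII mice (bottom). The cluster at 12.5 to 17.5 Mb before Ppp3cb lies above 0 in both panels, while the medians over both sexes of the 3 other stretches of the chromosome are between -0.14 and 0.07.

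Outside chromosome 14 the called genes with a name were Speer4c and Speer4cos on chromosome 5, and H2-Q4 in the major histocompatibility complex on chromosome 17. Speer4c (15709501 to 15714271, minus strand), one of a family of glutamate-rich genes described in testis, held 0 to 1.14 CPM in WT. KO females held 43.5, 16.6 and 11.2 CPM and KO males 1.96, 0.473 and 0.749 CPM. KO females lay above all other libraries, and WT males had no count. Speer4c rose by 4.96 ± 0.78 log2 (SE; edgeR, adjusted p = 0.0419). Speer4cos, annotated on the opposite strand of the same stretch, rose by 4.38 ± 0.71 (adjusted p = 0.0419), and since strand use in the counting is not given the pair cannot be told apart. Speer4c held 0 to 3 counts in WT, 2 to 8 in KO males and 19 to 64 in KO females. Speer4cos held 0 to 6, 5 to 12 and 18 to 68. Both genes thus passed the filter through KO females, the libraries with high receptor and repeat levels. Without KO females 1 and 3 the differences were 4.62 and 4.01 log2. With the receptor share as covariate they were 4.27 and 3.99 and were not called. A share of 86.4% of the windows of Speer4c occurs in other genes. Under AngII Speer4c held 0 to 3.40 CPM in WT against 0 to 11.6 CPM in KO and was not called (2.01 log2; adjusted p = 0.775).

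H2-Q4 encodes a class I molecule of the Qa group and lies at 35379617 to 35385290 on the plus strand. WT females held 27.8, 34.4 and 11.1 CPM and WT males 2.81, 22.8 and 27.2 CPM. KO females held 172, 139 and 175 CPM and KO males 59.2, 59.1 and 52.7 CPM. All 6 KO libraries lay above all 6 WT libraries, and KO females lay above KO males. H2-Q4 rose by 2.2 ± 0.38 log2, 4.61-fold (edgeR, adjusted p = 0.0477). The value was 1.97 without KO females 1 and 3 and 1.68 within males, where it was not called (adjusted p = 0.423 and 1). Under AngII it did not separate the genotypes, with 3.83 to 64.6 CPM in WT and 10.6 to 75.5 CPM in KO (0.84 log2; adjusted p = 0.781). Its neighbour H2-Q7 ranged over 12.6 to 35.9 CPM (WT) and 26.2 to 119 CPM (KO). It was called within females (2.41 ± 0.43 log2; edgeR, adjusted p = 0.0275) and not over both sexes (1.65 ± 0.35; 0.121). These class I genes resemble one another, and 21.8% of the windows of H2-Q4 and 26.4% of those of H2-Q7 occur in transcripts of other genes.

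Most genes of antigen presentation and the interferon response had higher means in KO. Over both sexes edgeR called only H2-Q4 among them, and DESeq2 called more, as given for each list. The lists behind these counts were drawn up with earlier results of these data known, so they are no independent evidence of direction. All 10 class II presentation genes tested were higher in KO (47.7% of all genes were), 8 with an unadjusted p under 0.05 (3.59% of all genes), with a median of 2.57 log2. Of the 10, edgeR and limma-voom called 0 and DESeq2 called 3, which were Cd74, H2-Aa and H2-Ab1. In Cd74, the invariant chain that guides class II molecules, WT females held 29.3, 58.4 and 59.4 CPM and WT males 18.4, 76.6 and 38.4 CPM. KO females held 274, 118 and 369 CPM and KO males 172, 835 and 28.2 CPM. KO male 3 lay within the WT range and KO male 2 above all other libraries. The difference was 2.66 ± 0.56 log2 (edgeR, adjusted p = 0.117), and it was 1.85 without KO male 2. H2-Aa and H2-Ab1, the alpha and beta chains of a class II molecule, also had KO male 3 within the WT range and the other 5 KO libraries above it. H2-Aa was at 1.14 to 7.64 CPM in WT, 4.25 CPM in KO male 3 and 12.3 to 88.9 CPM in the other KO libraries.

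Of the class I and immunoproteasome genes 18 of 21 were higher, with a median of 0.80, and edgeR called 1, DESeq2 3 and limma-voom 2. H2-K1, a classical class I chain, held 45.3 to 113 CPM in WT against 71.2 to 241 CPM in KO (0.90 ± 0.27 log2). Of the genes for interferon-gamma-induced GTPases and their regulators, 20 of 23 were higher, 16 with an unadjusted p under 0.05, and the median was 1.22. Of these 23, edgeR called 0, DESeq2 6 and limma-voom 1. These GTPases attack the vacuoles of intracellular microbes. Iigp1 held 18.6 to 25.9 CPM in WT females and 7.5 to 14.3 CPM in WT males. It held 104, 20.6 and 140 CPM in KO females and 41.2, 106 and 22.2 CPM in KO males (2.2 ± 0.41 log2; edgeR, adjusted p = 0.0532). KO female 2 lay within the range of the WT females, and every KO male lay above every WT male. Igtp ranged over 0 to 5.09 CPM (WT) and 3.75 to 40.0 CPM (KO) (2.83 ± 0.67), and Gbp2, a guanylate-binding protein, over 16.5 to 29.2 CPM (WT) and 20.6 to 88.8 CPM (KO) (1.19 ± 0.30). Tgtp1, another of these GTPases, had 3.13 to 6.32 CPM in WT, 26.1 to 56.4 CPM in KO females and 14.7, 33.1 and 0.25 CPM in KO males (2.48 ± 0.60), and 81.2% of its windows occur in other genes. Type I interferon-stimulated genes were higher in 18 of 23, with a median of 0.96, 7 higher and 1 lower at an unadjusted p under 0.05; edgeR and limma-voom called 0 and DESeq2 1. Among them Ifit1, which binds foreign RNA caps, was at 1.74 ± 0.53, while Ifi27l2a went the other way at -1.22 ± 0.40 log2.

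Interferon-activated factors are known to bind ISRE and GAS sequences, and promoter stretches of 4 of the genes above are printed to show these letters where they occur. Igtp, Tgtp1 and Gbp2 were picked because they hold them, which some genes of the lists do not, and H2-Q4 because it was called. The stretches cover 120 bases before the start site and its first base (RefSeq, GRCm38.p6, 5′ to 3′ on the strand of the gene). They are chr11:58199436-58199556 for Igtp (plus), chr11:48992246-48992366 for Tgtp1 (minus), chr3:142620543-142620663 for Gbp2 (plus) and chr17:35379497-35379617 for H2-Q4 (plus). Capitals mark 2 sets of letters. The ISRE letters are GAAA, any 2 bases and GAAA again, read on both strands, and the GAS letters are TTC, any 3 bases and GAA, which read the same on either strand.
Igtp: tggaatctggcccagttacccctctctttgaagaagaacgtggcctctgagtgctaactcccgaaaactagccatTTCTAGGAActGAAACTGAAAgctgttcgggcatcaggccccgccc
Tgtp1: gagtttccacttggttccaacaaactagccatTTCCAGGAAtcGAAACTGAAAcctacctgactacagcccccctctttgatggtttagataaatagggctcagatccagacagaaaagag
Gbp2: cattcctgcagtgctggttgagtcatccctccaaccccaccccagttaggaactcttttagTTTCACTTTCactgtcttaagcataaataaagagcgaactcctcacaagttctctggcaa
H2-Q4: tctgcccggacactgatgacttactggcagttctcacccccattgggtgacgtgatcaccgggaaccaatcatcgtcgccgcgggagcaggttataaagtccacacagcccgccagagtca
In Igtp and Tgtp1 both sets of letters stand side by side without overlap, at 45 and 34 bases before the start of Igtp and 88 and 77 bases before that of Tgtp1, counted from the first base of each match. Over the 300 bases held per promoter, the ISRE letters occur for 3.99% of all 27025 gene symbols with a promoter and the GAS letters for 9.55%. The ISRE letters occur for 10 of 17 interferon-gamma list members with a promoter in the table and for 10 of 16 type I members. The GAS letters occur for 6 of 17 and 3 of 16. H2-Q4 holds neither set of letters in these 300 bases. A match is a description of the letters and not of binding.

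The markers of some immune cells were also higher in KO, and no summed marker level passed the test. Of the macrophage markers 18 of 19 tested were higher in KO, 10 with an unadjusted p under 0.05, with a median of 1.39 log2, and edgeR called 0 and DESeq2 1. Mpeg1, a pore-forming protein of macrophages, was at 2.14 to 8.37 CPM in WT, 21.8 to 31.9 CPM in KO females and 2.95, 75.2 and 3.75 CPM in KO males. KO male 2 thus stood far above the other KO males, which lay within the WT range. The summed level of the 20 measured macrophage markers was 251 to 349 protein-coding CPM in WT and 253 to 1466 in KO. The difference had an exact permutation p of 0.0281, adjusted p = 0.346 over 20 such shares of the libraries, of which 0 passed. T and NK cell markers were at 7.70 to 26.2 protein-coding CPM in WT and 8.57 to 116 in KO. KO females (37.9 to 116) and KO male 2 (28.8) lay above all WT libraries, and KO males 1 and 3 within the WT range. The exact permutation p was 0.0563 (adjusted p = 0.375). Of the 16 measured T and NK cell markers 3 were tested, and 0 had counts in all 12 libraries. KO females were also the highest for other lists of low genes. Summed skeletal muscle markers were at 90.4 to 151 protein-coding CPM there and 23.9 to 61.4 elsewhere. Mesothelial and epithelial markers were at 30.6 to 53.7 and 5.31 to 21.2. B cell markers were at 31.7 to 280 protein-coding CPM in WT and 23.4 to 481 in KO, ranges that overlap. Neutrophil and mast cell markers were at 69.9 ± 27.7 protein-coding CPM in WT and 67.8 ± 19.3 in KO (SD, n = 6), with 3 of 7 tested higher and a median of -0.15 log2. No marker of these lists was at 0 in all 12 libraries. In bulk tissue more cells of a type and more RNA per cell cannot be told apart, and the part of these cells in the class II and interferon values was not tested.

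How far 1 library carried these lists was measured by leaving it out. Within males the median of the class II list was 2.79 log2 with KO male 2 and 0.70 without it, that of the macrophage markers 1.75 and 0.07, and that of the interferon-gamma list 1.08 and 0.29. The male median of the type I list turned from 0.51 to -0.14 without it, and that of the class I list went from 0.45 to 0.02. Over both sexes the class II median was 1.63, the macrophage median 0.74 and the interferon-gamma median 1.02 without that library. Without KO females 1 and 3 they were 2.39, 1.28 and 0.83, and with the receptor share as covariate 2.32, 1.39 and 0.99. The class I and type I medians over both sexes were 0.80 and 0.96. Without KO females 1 and 3 they were 0.43 and 0.67, and with the receptor share as covariate 0.40 and 0.43. In the AngII mice the class II, macrophage and interferon-gamma lists had medians of 0.80, 0.15 and 0.53, with 10 of 10, 11 of 17 and 19 of 22 genes higher and none called.

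**Figure D3:**
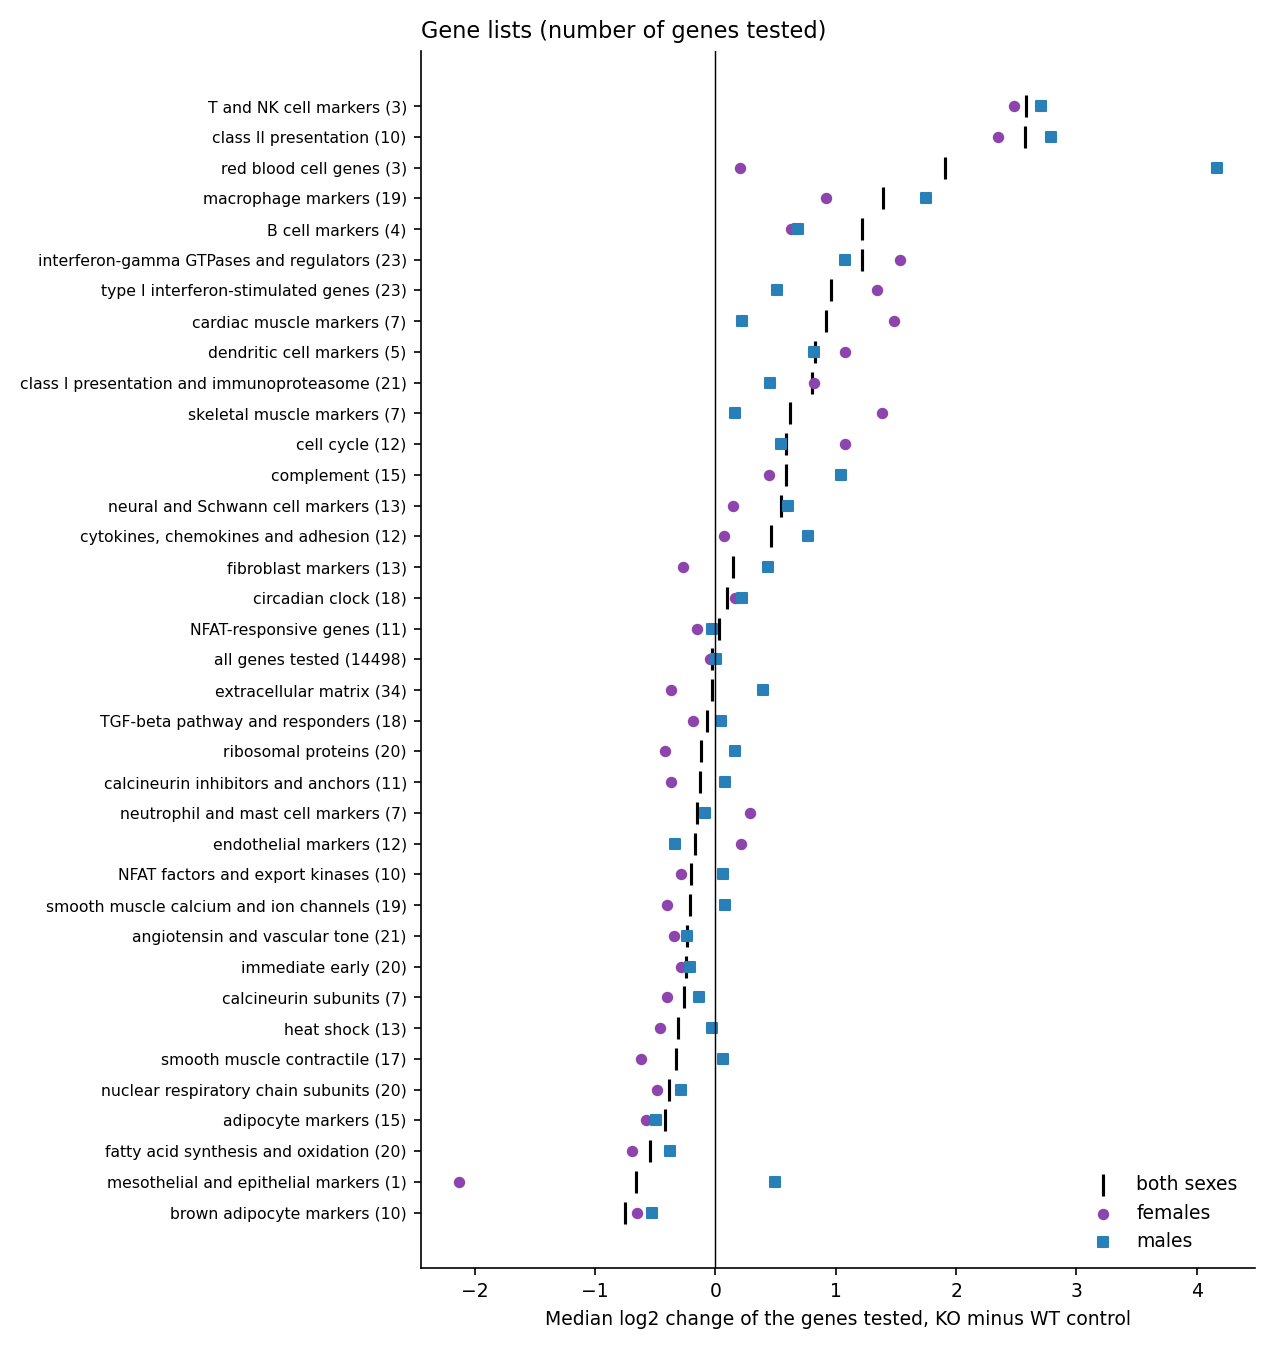
Median log2 difference, KO minus WT control, of the tested genes of 36 gene lists and of all genes, over both sexes (bar), in females (circle) and in males (square). Numbers in brackets are genes tested. Class II, macrophage and interferon lists lie to the right in both sexes when KO male 2 is included, as here (without it the male median of the type I list is -0.14), and contractile and extracellular matrix genes lie on opposite sides of 0 in females and males.

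Genes of the calcineurin pathway other than Ppp3cb gave no called difference. Of the 6 other genes tested in the list of subunits and calmodulins 1 was higher, and 0 of these 6, of the 11 inhibitor and anchor genes and of the 10 NFAT factors and export kinases had an unadjusted p under 0.05 or were called by edgeR, DESeq2 or limma-voom. Ppp3ca, the alpha catalytic subunit, held 40.3 to 115 CPM in WT against 32.9 to 65.9 CPM in KO (-0.16 ± 0.25 log2, SE). Rcan1, a calcineurin inhibitor that NFAT induces, was at 12.9, 12.8 and 27.8 CPM in WT females and 10.6, 16.2 and 13.8 CPM in WT males. It was at 0, 8.10 and 6.47 CPM in KO females and 10.8, 8.51 and 13.0 CPM in KO males. KO females lay below all WT libraries, and KO males 1 and 3 lay within the range of WT (-1.03 ± 0.51; edgeR, adjusted p = 0.869). In the AngII mice Rcan1 was called lower in KO (-1.81 log2; adjusted p = 0.00239). NFAT-responsive genes had a median of 0.03, with 2 of 11 higher and 2 lower at an unadjusted p under 0.05.

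Contractile genes of smooth muscle were lower over both sexes, with different medians in females and males. All 17 contractile genes tested were below 0, with a median of -0.32 log2, 2 with an unadjusted p under 0.05 (2.19% of all genes) and 0 called by edgeR, DESeq2 or limma-voom. The median was -0.61 in females and 0.07 in males. Myh11 held 8710, 7340 and 7413 CPM in WT females and 3876, 5477 and 4735 CPM in KO females, which did not overlap, as in 9.67% (KO higher) and 11.6% (KO lower) of all genes. It held 8365, 7186 and 10030 CPM in WT males and 8677, 8037 and 10081 CPM in KO males, which did. Acta2 differed by -0.95 ± 0.32 in females and 0.38 ± 0.32 in males. The difference between the sexes was not called for either gene (edgeR, adjusted p = 0.601 and 0.428). With the receptor share as covariate the median of the list was -0.05. Extracellular matrix genes likewise had medians of -0.37 in females and 0.39 in males.

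Genes of fat tissue and fuel use were lower in KO in both sexes. All 20 genes of fatty acid synthesis and oxidation were below 0, with a median of -0.54 log2 (females -0.69, males -0.38), 6 with an unadjusted p under 0.05 and 0 called by edgeR, DESeq2 or limma-voom. Fatty acid synthase, Fasn, was at 4130, 4497 and 4795 CPM in WT females and 4161, 633 and 3488 CPM in WT males. It was at 775, 2849 and 1718 CPM in KO females and 1532, 2544 and 1388 CPM in KO males. All KO libraries lay below 5 of the WT libraries, and WT male 2 lay below all of KO (-0.96 ± 0.38; edgeR, adjusted p = 0.731). Of the adipocyte markers 14 of 15 were lower (median -0.42), among them the lipase Lipe (-1.09 ± 0.34) and the adipokine Cfd (-0.96 ± 0.26). Of the nuclear genes for respiratory chain subunits 19 of 20 were lower (median -0.39). The summed adipocyte markers were 4590 ± 886 protein-coding CPM in WT and 3182 ± 963 in KO (SD, n = 6), with ranges of 3281 to 5534 and 1816 to 4464 (exact permutation p = 0.0346, adjusted p = 0.346). With these markers as covariate the median of the fatty acid list was -0.01. How much fat stayed on each aorta is not stated.

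Some other genes had a small unadjusted p and missed the threshold. Those picked by p were taken only from genes with the same sign in females and males. Agreement between the sexes is therefore no finding here. Bhlhe41, a repressor of the circadian clock, ranged over 16.7 to 32.7 CPM (WT) and 25.2 to 57.0 CPM (KO), where only KO male 3 fell within the WT range (1.06 ± 0.24 log2; edgeR, adjusted p = 0.162). Under AngII it differed by 1.12 (adjusted p = 0.0906). Tcap, a protein of the sarcomere's Z-disc, was at 69.6, 26.1 and 15.8 CPM in WT females and 44.7, 20.8 and 31.7 CPM in WT males. It was at 70.6, 56.7 and 82.3 CPM in KO females and 117, 112 and 74.7 CPM in KO males. WT female 1 was the only WT library within the KO range (1.29 ± 0.31; adjusted p = 0.199). Under AngII Tcap rose by 1.73 log2 (edgeR, adjusted p = 0.0111), with a range of 5.83 to 55.6 CPM in WT and of 49.0 to 157 CPM in KO. The skeletal muscle markers had a median of 0.62, with 0 of 7 at an unadjusted p under 0.05. Their median was 1.38 in females and 0.17 in males, whereas Tcap differed by 0.92 in females and 1.65 in males. Without KO females 1 and 3 the median of the list was 0.32, and with the receptor share as covariate 0.17.

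On the lower side, Zfp568, a zinc finger repressor, held 33.0 to 49.4 CPM in WT against 18.8 to 28.5 CPM in KO, with no overlap (-0.83 ± 0.21 log2; edgeR, adjusted p = 0.243). It was 1 of 20 genes with every KO library below every WT library (0.138%). Lama4, a laminin chain of vascular basement membranes, was another, at 232 to 294 CPM in WT and 129 to 220 CPM in KO (-0.49 ± 0.17; adjusted p = 0.554). Plekhh2, a cytoskeletal protein, ranged over 34.7 to 55.0 CPM (WT) and 13.6 to 37.0 CPM (KO) (-0.95 ± 0.23; adjusted p = 0.206). Under AngII Zfp568 and Lama4 overlapped between the genotypes (-0.30 and -0.08 log2). Plekhh2 did not overlap there, with 38.9 to 61.3 CPM in WT against 25.6 to 38.4 CPM in KO (-0.63 log2; edgeR, adjusted p = 0.162), as in 0.235% of all genes with KO lower.

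**Figure D4:**
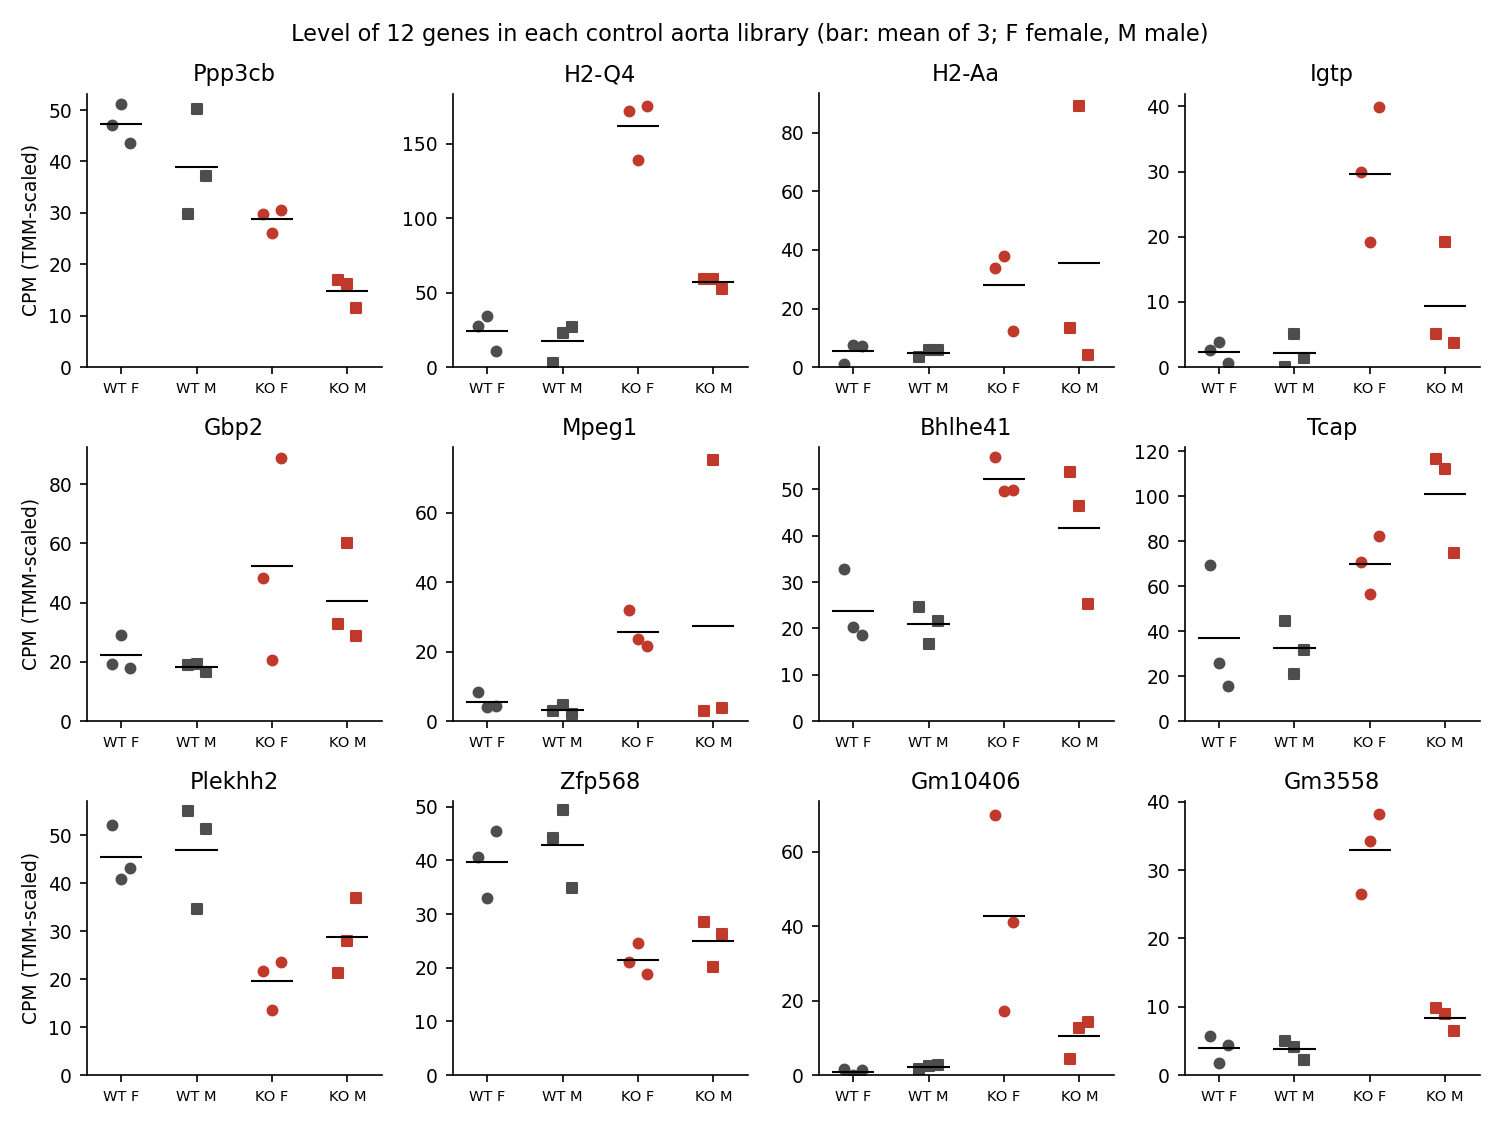
TMM-scaled CPM of 12 genes in each control library (points; circles female, squares male; WT grey, KO red), with the mean of 3 as a bar. H2-Q4, Gm10406, Gm3558 and Zfp568 do not overlap between WT and KO, and in H2-Aa and Mpeg1 KO male 2 lies above the other males.

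Within females, genes outside the cluster and the class I genes were also called. Abca2, a lipid transporter, was at 70.1 to 79.9 CPM in WT females and 15.9 to 35.4 CPM in KO females, and it fell by 1.61 log2 (SE 0.28; edgeR, adjusted p = 0.0249). It was at 75.1 to 85.1 CPM in WT males and 85.1 to 99.4 CPM in KO males. Thada fell by 1.56 in females (adjusted p = 0.0383) and the neurotrophin Ntf3 by 1.88 (0.0449), against -0.18 and 0.26 in males. Sfi1, a centrosomal protein, rose by 1.60 in females (0.0383), against -0.46 in males. For these 4 genes the difference between the sexes was -1.80, -1.38, -2.13 and 2.06 log2 and was not called (edgeR, adjusted p of 0.305 to 0.373). The KO females are the libraries with high receptor and repeat levels, and with the receptor share as covariate 0 genes were called within females.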

How the data were processed

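Raw gene counts were used as the authors deposited them, whole-number counts per gene. Per the submitters' processing notes they were made with cutadapt 1.8.1, TopHat2 2.0.14, Bowtie2 2.2.5 and featureCounts 1.4.6 on mm10; annotation, strand and multi-mapping settings are not given in the sources used here. Chromosomes 9, X, Y and MT (6021 genes) and chromosome 8 beyond 97565603 (526 genes) had 0 counts in every library and were treated as not measured.

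Counts of the 12 control libraries were filtered with filterByExpr (minimum count 10, with the 4 groups of genotype and sex) and scaled by TMM. They were tested two-sided with edgeR 4.0.16 (quasi-likelihood F-test, sex as covariate, R 4.3.3), with Benjamini-Hochberg adjustment over 14498 genes. A second fit with 4 groups gave the contrasts within each sex and their difference. CPM are TMM-scaled within the control or the AngII libraries. Shares of counts were tested by exact permutation over 924 assignments of libraries (scipy 1.17.1). DESeq2 1.42.0 and limma 3.58.1 were alternatives. Scripts were tested on simulated data. Gene coordinates and transcript windows came from GENCODE M21.

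Named genes were Ppp3cb, called genes with a name and a mean of at least 1 log2 CPM, uncalled genes with the smallest p up to 25, up to 8 called genes or otherwise 5 per contrast within a sex, 5 near Ppp3cb, and up to 4 members per list with the smallest p. Others, among them the chromosome 14 cluster, its boundary and its genes, the second block, Dlg5 and the repeat-like models Gm10800, Gm10801 and Gm21738, were chosen after their values were seen. The samples compared and all lists were chosen with earlier results of these data known.

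Same-numbered WT and KO libraries did not deviate together (r of -0.02 to 0.13 over 6 pairs), so numbers were not taken as pairs. No 2 libraries of a group were copies.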

Additional observations from a re-analysis of the deposited data

Results flagged for a closer look

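In each of 94 groups of 6 libraries the highest and the lowest value were compared with the other 5, and 10 groups had 1 library far from the rest; chance gives about 1 in 20 such groups. Among the KO libraries, male 3 was low for Bhlhe41 (25.2 CPM) and for the interferon-induced GTPase genes Tgtp1 (0.25 CPM) and Tgtp2 (1.25 CPM). KO female 1 was low for the summed brown adipocyte markers, at 239 protein-coding CPM.

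Among the WT libraries, male 1 was low for Trim30a, a regulator of innate immune signalling (5.63 CPM), for the share of counts on protein-coding genes (36.3%) and for the summed dendritic cell markers (55.4 protein-coding CPM). WT female 2 was high for Gbp2, at 29.2 CPM. WT male 3 was high for neutrophil and mast cell markers (124.9 protein-coding CPM), and WT male 2 for neural and Schwann cell markers (674 protein-coding CPM).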

How the results depend on the processing

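Over both sexes 5 genes were called by edgeR, and DESeq2 called 126 and limma-voom 36. Median-ratio factors in place of TMM gave 14, no filter 177, protein-coding genes alone 2 and all 24 libraries 36. Females alone gave 20 and males alone 0. The count was 0 without sex as covariate, with the receptor share or the adipocyte markers as covariate and without KO females 1 and 3. Leaving out 1 library gave 0 to 46 genes: 46 without WT male 2, 19 without KO male 3, 11 without WT male 3, 2 without KO female 3, 1 without WT female 1 or KO female 2, and 0 without WT female 2, WT female 3, WT male 1 or KO female 1. Within females 42 genes were called, against 450 by DESeq2, 326 by limma-voom, 470 with no filter and 133 with all 24 libraries. The count was 0 with the receptor share as covariate, 1 with adipocyte markers, and 0 without KO females 1 and 3. Leaving out 1 library gave 0 to 408: 408 without KO female 2, 25 without KO male 3, 20 without WT female 1 or KO male 2, 13 without KO female 3 or KO male 1, 9 without KO female 1 and 0 without WT female 2 or 3. Within males 0 genes were called, against 3 by DESeq2 and 47 with no filter. For the difference between the sexes 0 genes were called, against 110 by DESeq2, 1 by limma-voom, 137 with no filter, 9 with all 24 libraries, 1 without KO females 1 and 3 and 0 to 5 without 1 library (5 without KO female 3, 3 without WT male 1, 2 without KO female 2). With the replicate block 0 genes were called over both sexes, 42 in females, 0 in males and 3 for the difference between the sexes; the labels do not say that equal numbers share a litter or day. The cause of these shifts was not tested. H2-Q4 was called in 10 of 26 alternatives. No direction of a called gene turned. None of the 20 shares of library counts passed an adjusted p of 0.05 in any alternative. With 1523328 to 2401264 counts, KO females limit what can be seen of low genes.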
